A study of Mus musculus with 4 samples.

Results

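The cells described here are bone marrow cells of the B lineage that carried RNA of Ebf1, the transcription factor that commits lymphoid progenitors to the B lineage, from mice given rapamycin around birth and from mice that were not. They came from female Tppp3CreER LSLTdTomato mice aged 6 weeks, in which a tamoxifen-inducible Cre under the control of Tppp3 switches on a tdTomato reporter. All 6 mice of the series carried both alleles. In the group called tamoxifen, 2 mice received tamoxifen at P0 and P3, the postnatal days 0 and 3. In the group called tamoxifen+rapamycin, 2 mice received both drugs on those days. The remaining 2 mice received rapamycin at P30 and no tamoxifen, and their values are given as late rapamycin without a test. The labels name the sorted material as Lin-Sca+Kit+ cells, Lin-Sca-Kit+ cells and whole bone marrow, and do not give the mix of these for each mouse, on which every share of cells below depends. Each of 2 days held 1 mouse of each treatment, marked with its own hashtag antibody and run in 1 droplet reaction with the other 2, so replicate 1 is day 1 and replicate 2 is day 2.

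Of 46467 barcodes, 37717 were kept because they had at least 500 genes, at least 1000 unique molecular identifiers (UMIs, each counted as 1 RNA molecule), at most 10% mitochondrial UMIs and at least 80% of their hashtag UMIs from 1 hashtag. Cells were then selected on at least 1 UMI of Ebf1 and no UMI of Elane, which encodes neutrophil elastase. This left 4337 Ebf1+ cells in the 6 mice and 3419 in the 4 mice compared, out of 24559 kept cells in those 4. A UMI of Ms4a1, which encodes CD20 and appears late in B-cell maturation, was found in 762 of the 3419, and 2657 had none. Ebf1, Elane and Ms4a1 chose the cells, so their levels are descriptions. Treatments were read from the deposited hashtag table, which gives hashtags 1 and 4 to tamoxifen+rapamycin and hashtags 2 and 5 to tamoxifen. The remaining group of that table, "Ctrl", was taken as late rapamycin, and all late rapamycin values depend on this reading. The labels number the tamoxifen mice 1 and 4. If those numbers were hashtag numbers, the treatments would be exchanged and every sign below would turn.

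B cells form in the marrow in steps. Pro-B cells recombine the immunoglobulin heavy chain with the help of Rag1, Rag2 and Dntt, and pair it with the surrogate light chain made of Vpreb1 and Igll1 to form the pre-B receptor, whose signal passes through adaptors such as Blnk and starts a burst of division. Small pre-B cells then recombine the kappa or lambda light chain, and immature and mature B cells gain Ms4a1, MHC class II, IgD and CD23. Rapamycin binds FKBP12, encoded by Fkbp1a, and the complex inhibits mTOR complex 1, a kinase that couples nutrients and growth factors to protein synthesis, ribosome production and cell growth.

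The label of the cells held against genes that did not choose them. Pax5, the factor that maintains B identity, had a UMI in 73.6% of the Ebf1+ cells on day 1 and 79.7% on day 2, against 1.23% and 1.13% of the other kept cells. Of cells with 2 or more Ebf1 UMIs, 84.5% had a UMI of Cd79a, which encodes a signalling chain of the B-cell receptor. Of the 483 cells with exactly 1 Ebf1 UMI, just inside the threshold, 23.8% had one, and of the 25797 cells just outside it with none, 0.760% did. Cells with exactly 1 Ebf1 UMI were 95 of 659 and 90 of 848 Ebf1+ cells in the tamoxifen mice. In the tamoxifen+rapamycin mice they were 72 of 820 and 75 of 1092, a smaller share on both days. The tamoxifen sums thus held more cells that mostly lacked Cd79a. S100a8, a neutrophil transcript, had a UMI in 38.7% and 21.1% of the Ebf1+ cells on the 2 days and in 61.1% and 43.2% of the others, and free RNA and cells caught together cannot be told apart here. Depth was 1674174 and 2151483 UMIs summed over the Ebf1+ cells of the 2 tamoxifen mice and 2239233 and 2988657 in the 2 tamoxifen+rapamycin mice. The median Ebf1+ cell had 1750 and 1393.5 UMIs in the tamoxifen mice and 2187 and 1559 in the tamoxifen+rapamycin mice, so cells of the second group were deeper on both days.

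Ebf1+ cells made up 10.4% (95% exact binomial interval 9.68% to 11.2%) and 14.3% (13.4% to 15.2%) of kept cells in tamoxifen mice 1 and 2. In tamoxifen+rapamycin mice 1 and 2 they made up 13.2% (12.3% to 14.0%) and 18.0% (17.0% to 18.9%). The intervals cover counting error only. The share was higher with rapamycin within each day, but the 2 groups overlapped, since the day 2 tamoxifen mouse lay above the day 1 tamoxifen+rapamycin mouse. The mean difference of the days was 3.19 percentage points ± 0.642 (SD, n = 2 pairs of mice). With 1 of the 4 mice left out, the difference of the group means lay between 0.797 and 5.58. Days are then no longer paired, so that range also holds the gap between days. Late rapamycin mice had 3.14% and 11.4%, both below every other mouse of their day. An exact permutation test of 2 mice against 2 cannot give a two-sided p below 0.333, so shares carry no test.

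The makeup of the Ebf1+ cells differed along with their number. Cells with an Ms4a1 UMI made up 16.8% and 33.6% of Ebf1+ cells with tamoxifen and 11.8% and 24.6% with tamoxifen+rapamycin, a mean difference of -6.99 points ± 2.80 (SD, n = 2 pairs of mice). Without tamoxifen mouse 2 the difference of the group means was 1.39 points and without tamoxifen+rapamycin mouse 1 it was -0.592, while without tamoxifen mouse 1 or tamoxifen+rapamycin mouse 2 it was -15.4 and -13.4. With every cell thinned to 1000 UMIs the shares were 14.5% and 31.0% against 9.33% and 22.9%. Under stricter cell filters, which ask for at least 1000 genes and 2000 UMIs, they were 8.79% and 13.9% against 7.47% and 11.3%, and the mean difference was -1.95 points. Cells with a UMI of any of 4 precursor genes (Dntt, Vpreb1, Igll1, Rag1) made up 44.5% and 31.5% with tamoxifen and 53.3% and 41.2% with tamoxifen+rapamycin. Cells with a UMI of any of 5 division genes (Mki67, Top2a, Cdk1, Ccnb1, Birc5) made up 53.3% and 29.8% with tamoxifen and 64.0% and 37.6% with tamoxifen+rapamycin. On both days the rapamycin mouse had the lower Ms4a1 share and the higher precursor and division shares, and for all 3 shares the gap between the 2 days was wider than the gap between treatments. Thinned, the precursor shares were 36.7% and 25.7% against 45.6% and 35.3%, and the division shares were 45.8% and 22.8% against 60.3% and 32.0%.

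**Figure D1:**
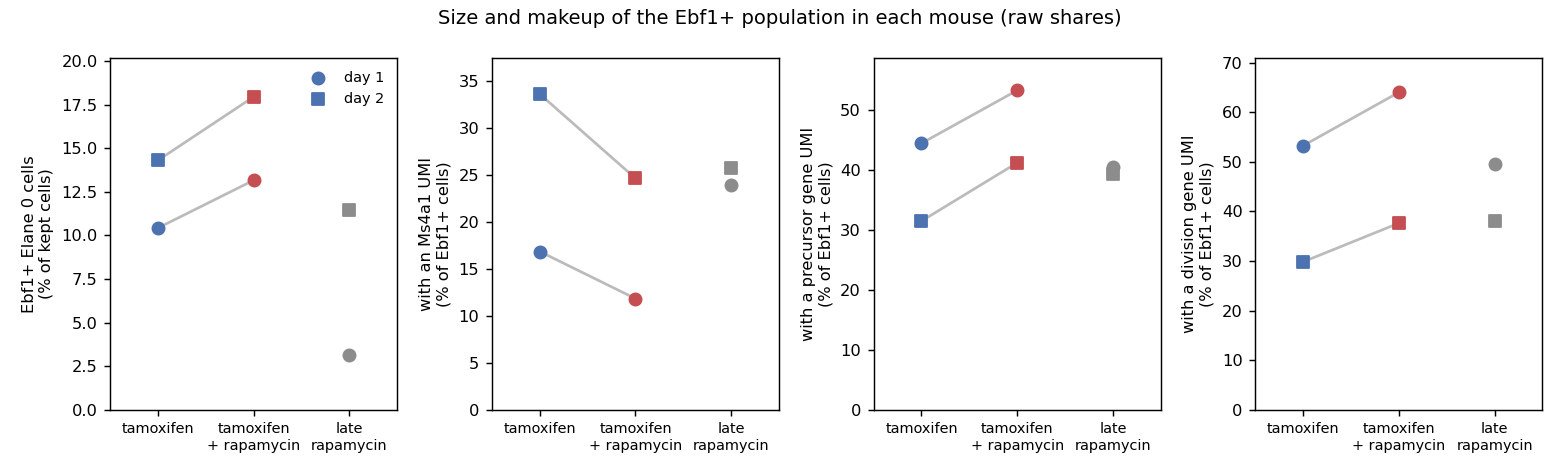
Each panel shows 1 share in percent (vertical axis) for each mouse, grouped by treatment on the horizontal axis. Circles are day 1, squares are day 2, and grey lines join the tamoxifen and tamoxifen+rapamycin mice of a day. The lines rise for the Ebf1+, precursor and division shares and fall for the Ms4a1 share on both days, while the groups overlap in every panel.

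Summed over all Ebf1+ cells of a mouse and compared with the day as a block, 690 of 10662 genes passed an adjusted p of 0.05 in edgeR's quasi-likelihood test, or 6.47% of the genes tested. Of these, 381 were higher with tamoxifen+rapamycin (3.57%) and 309 were lower (2.9%). Most changes were small, with a median size of 0.55 on the log2 scale, and 123 genes reached a 2-fold difference. The sign was the same on both days for 683 of the 690, which the block and the 2 pairs of mice largely fix. Over all genes tested it was the same for 60.9%. The test had 1 residual degree of freedom over 4 mice, and the count rested on the block: 6 genes passed without it, among them Trib2, Ighg2b and the noncoding gene 4930597A21Rik described below, and the other 3 were gene models without a name. With all 6 mice in 1 fit 1 gene passed, Car1, with 837 genes at an unadjusted p under 0.05. Leaving tamoxifen mouse 1, tamoxifen mouse 2, tamoxifen+rapamycin mouse 1 or tamoxifen+rapamycin mouse 2 out of that fit left 23, 6, 12 and 0 calls. DESeq2 with the block called 60 genes, all among the 690. Genes described below that were not among the 60 include Trib2, Pttg1, Cdkn1a, Hist1h2ab, Ighg2b, Hvcn1 and Fcer2a.

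**Figure D2:**
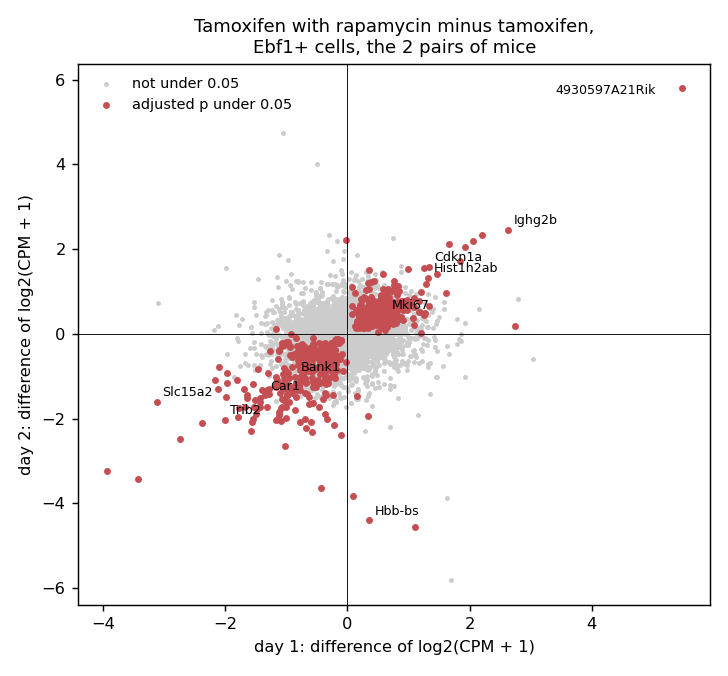
Each point is 1 of the genes tested, with the difference of log2(CPM + 1) between the tamoxifen+rapamycin and the tamoxifen mouse of day 1 on the horizontal axis and of day 2 on the vertical axis. CPM, counts per library of a common size, is a gene's share of the UMIs. Red points passed an adjusted p of 0.05. Of the 690 red points 683 lie at the upper right or the lower left, which the test with the day as block largely fixes, and Hbb-bs is among the few that do not.

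**Figure D3:**
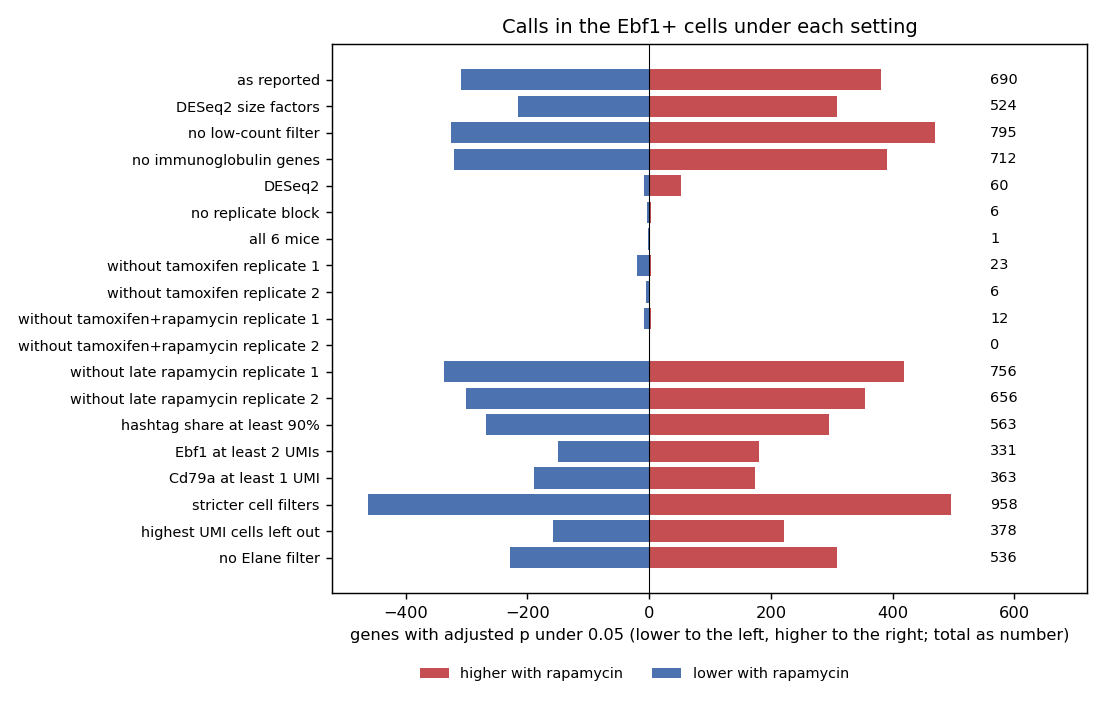
Bars give the number of genes past an adjusted p of 0.05 in the Ebf1+ cells (horizontal axis, lower to the left and higher to the right) for each way of processing on the vertical axis, with the total printed as a number. Counts lie between 331 and 958 where cell filters, the gene filter or scaling were changed, and at 60 or fewer with DESeq2, without the block, with all 6 mice or with 1 of the 4 mice left out.

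Many genes of the second gap phase and mitosis (G2/M) rose. Of 38 G2/M genes tested, 34 were called higher and none lower, with a median log2 difference of 0.55, where the median over all genes was -0.00. DESeq2 called 11 of the 38, all higher, and edgeR called none of them without the block, with all 6 mice or with any 1 of the 4 mice left out. The 4 that did not pass, Aurkb, Ckap2, Gtse1 and Tubb4b, were also above 0, at 0.15 to 0.31. Mki67, the proliferation antigen that coats mitotic chromosomes, stood at 1310 and 836 CPM in the tamoxifen mice and at 2039 and 1158 in the tamoxifen+rapamycin mice. These CPM were scaled by edgeR's trimmed mean of M values (TMM). Within each day the rapamycin mouse was higher, and across days the groups overlapped. Its log2 difference was 0.55 ± 0.05 (SE; edgeR adjusted p = 7.01e-09). Top2a, the topoisomerase that untangles replicated chromosomes, went from 1184 and 738 CPM to 1746 and 1095 (0.56 ± 0.05, adjusted p = 5.02e-09). Cenpf, a kinetochore protein, went from 351 and 224 CPM to 567 and 331 (0.63 ± 0.08, adjusted p = 1.65e-06). Both genes showed the pattern of Mki67, with day 1 above day 2 in either treatment. Pttg1, which encodes securin, the inhibitor of chromosome separation, was at 22.1 and 31.1 CPM with tamoxifen and at 69.6 and 61.3 with tamoxifen+rapamycin, so its groups did not overlap. Its log2 difference was 1.26 ± 0.17 (adjusted p = 4.85e-06). The late rapamycin mice had 1098 and 1067 CPM of Mki67, unscaled.

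Many G2/M genes share a short promoter element, the cell cycle homology region, whose core reads TTTGAA. In RefSeq promoter windows of the GRCm38.p6 build, 250 bases before to 50 after a start site, this core on either strand was in 25 of 36 windows of the G2/M list (69.4%; 34 of its 38 genes matched). It was in 5878 of 32851 windows of all genes (17.9%), in 3 of 32 of the S phase list (9.38%) and in 4 of 27 of the early B and pre-B receptor list (14.8%). For the list of B-cell receptor and surface genes it was in 5 of 25 windows (20%). A match is a description of these letters and not a bound site. The 150 bases before the start sites of 4 genes that rose are shown to display the element, with its core on either strand in capitals. Cdk1, the kinase that drives entry into mitosis, and Ube2c, a ubiquitin-conjugating enzyme of the anaphase complex, were chosen for display after their values were seen. They lie at chr11:99024190-99024339 (Top2a, minus strand), chr7:135716380-135716529 (Mki67, minus strand), chr10:69352913-69353062 (Cdk1, minus strand) and chr2:164769779-164769928 (Ube2c, plus strand), and each is written 5′ to 3′ along its gene.
Top2a: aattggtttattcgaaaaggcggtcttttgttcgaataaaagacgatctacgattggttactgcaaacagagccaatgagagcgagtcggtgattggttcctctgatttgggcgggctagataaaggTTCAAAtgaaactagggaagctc
Mki67: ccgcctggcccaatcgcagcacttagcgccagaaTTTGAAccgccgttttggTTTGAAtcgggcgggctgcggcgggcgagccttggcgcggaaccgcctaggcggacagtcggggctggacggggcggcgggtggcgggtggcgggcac
Cdk1: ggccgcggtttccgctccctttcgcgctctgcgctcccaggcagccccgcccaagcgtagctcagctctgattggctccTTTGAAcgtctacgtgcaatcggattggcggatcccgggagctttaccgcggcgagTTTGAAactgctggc
Ube2c: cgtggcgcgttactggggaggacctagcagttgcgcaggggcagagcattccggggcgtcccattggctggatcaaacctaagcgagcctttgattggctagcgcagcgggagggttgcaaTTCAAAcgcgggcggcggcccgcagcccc

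Genes of DNA replication moved less. Of 40 S phase genes tested, 3 were called higher and none lower, with a median of 0.14. That share of calls lay near the 6.47% of all genes tested. The 3 were Rrm2, a subunit of ribonucleotide reductase (0.41), Tyms, thymidylate synthase (0.47), and Uhrf1, which carries DNA methylation through replication (0.38). DESeq2 called none of the 40, and edgeR called none without the block or with all 6 mice. Histone genes, variants such as H2afy among them, were examined as a group after their values were seen. Of 54 histone genes tested, 24 were called higher and 1 lower, with a median of 0.49. Hist1h2ab, a histone H2A gene, went from 49.5 and 26.9 CPM to 125 and 69.1 (1.34 ± 0.13, adjusted p = 1.66e-08), without overlap of the groups. Reads of near-identical histone copies may be split between genes, so single members are uncertain. Cdkn1a, which encodes the cell-cycle inhibitor p21, also rose, from 16.1 and 6.96 CPM to 42.1 and 22.9 (1.52 ± 0.25, adjusted p = 8.21e-05), and its groups did not overlap.

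Of 21 early B and pre-B receptor genes tested, 9 were called higher, 1 lower and 11 neither, with a median of 0.33. DESeq2 called 4 of them higher, and none was called without the block or with all 6 mice. In cells with at least 2 Ebf1 UMIs 5 were called higher, and in cells with a Cd79a UMI 4, with none lower in either. Vpreb1 (chr16:16868403-16870843) stood at 323 and 216 CPM with tamoxifen and at 522 and 367 with tamoxifen+rapamycin, a log2 difference of 0.73 ± 0.08 (adjusted p = 1.26e-07; DESeq2 adjusted p = 0.000115). Igll1, its partner in the surrogate light chain and its neighbour on chromosome 16, went from 385 and 244 CPM to 514 and 398 (0.56 ± 0.08). For both genes the rapamycin mice were the higher pair, and the lowest of that pair stood above the highest tamoxifen mouse. Dntt, the polymerase that adds nucleotides at immunoglobulin junctions, went from 354 and 166 CPM to 528 and 442 (0.99 ± 0.11, adjusted p = 1.53e-07), again without overlap, but DESeq2 did not call it (adjusted p = 0.28). A UMI of Dntt was in 19.9% and 8.49% of Ebf1+ cells with tamoxifen and in 27.7% and 15.3% with tamoxifen+rapamycin. Smarca4, the ATPase of a chromatin remodelling complex, went from 771 and 645 CPM to 985 and 943 (0.45 ± 0.06). The genes of the precursor share are members of this list.

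Of 28 transcription factors of the B lineage tested, 10 were called higher and none lower, with a median of 0.11, and 10 of the 28 were below 0. DESeq2 called 1, and none was called without the block or with all 6 mice. In cells with a Cd79a UMI, 3 were called higher and 5 lower, and in cells with at least 2 Ebf1 UMIs 4 higher and 3 lower. Lef1, a Wnt-responsive factor of pro-B cells, went from 409 and 281 CPM to 611 and 455 (0.64 ± 0.07, adjusted p = 4.63e-07). Its groups did not overlap. Id3, an inhibitor of E proteins, rose by 0.73 ± 0.13 and Tcf4, an E protein, by 0.43 ± 0.08. Bach2, a repressor that restrains plasma cell fate, rose by 0.17 ± 0.03 over all Ebf1+ cells, and stood at -0.02 in cells with at least 2 Ebf1 UMIs and at -0.05 in cells with a Cd79a UMI. Of 6 tested genes of a list of neonatal B-cell genes, 2 were called higher, Tcf7l2 (0.66 ± 0.12) and Plac8 (0.29 ± 0.07). Ebf1 itself, which chose the cells, was at 4447 and 5273 CPM with tamoxifen and at 6384 and 6948 with tamoxifen+rapamycin.

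Of 26 genes of the B-cell receptor and surface tested, 3 were called higher and 4 lower, with a median of -0.05. In cells with a Cd79a UMI, 1 was called higher and 9 lower. Under the stricter cell filters 6 of 24 tested were called higher and none lower. Blnk, the adaptor of the pre-B receptor, was at 572 and 571 CPM with tamoxifen and at 888 and 899 with tamoxifen+rapamycin. The mice of each group were nearly equal, and its log2 difference was 0.64 ± 0.06 (adjusted p = 1.02e-08). Cd24a, a surface protein of precursors, rose by 0.35 ± 0.06. Bank1, a scaffold protein of B-cell receptor signalling, fell from 261 and 644 CPM to 144 and 320 (-0.94 ± 0.08, adjusted p = 1.42e-09; DESeq2 adjusted p = 3.26e-07). Fcer2a, which encodes CD23 of mature B cells, fell from 26.3 and 53.8 CPM to 12.4 and 25.3 (-1.09 ± 0.20, adjusted p = 0.000475). For both, day 2 mice were higher than day 1 mice in either treatment, and the day 2 rapamycin mouse overlapped the tamoxifen range for Bank1 but not for Fcer2a.

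Of 9 immunoglobulin constant genes tested, 4 were called lower and 1 higher, with a median of -0.51. DESeq2 called 2 lower and none higher. Under the stricter cell filters the balance turned, with 4 called higher and 2 lower. Iglc2, a lambda light chain constant gene (chr16:19198396-19200351), fell from 169 and 341 CPM to 81.4 and 163 (-1.06 ± 0.10, adjusted p = 3.41e-09), without overlap. Iglc3 fell by 0.77 ± 0.11 on the log2 scale and Ighd, the constant gene of IgD, by 0.60 ± 0.11. The lambda genes are near-identical copies, so the split of reads between them is uncertain. Ighg2b, a constant gene of class-switched IgG, rose from 3.58 and 5.57 CPM to 27.5 and 35.0 (2.74 ± 0.30, adjusted p = 1.3e-07). It came from 4 and 6 cells with a UMI in the tamoxifen mice and from 30 and 30 cells in the tamoxifen+rapamycin mice, none of them with an Ms4a1 UMI. Of 4 plasma cell genes tested, Mzb1, a chaperone of immunoglobulin assembly, was called higher (0.53 ± 0.09).

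All 10 MHC class II genes were below 0, with a median of -0.56, and 4 were called lower. In cells with a Cd79a UMI 8 were called lower, and DESeq2 called none over all Ebf1+ cells. Cd74, the invariant chain that escorts class II molecules, stood at 517 and 1414 CPM with tamoxifen and at 421 and 874 with tamoxifen+rapamycin. Its groups overlapped widely, and its log2 difference was -0.50 ± 0.07 (adjusted p = 9.08e-06; DESeq2 adjusted p = 0.222). H2-Eb1, a class II beta chain, went from 74.6 and 191 CPM to 59.5 and 85.2 (-0.85 ± 0.13, adjusted p = 4.9e-05). H2-Aa, a class II alpha chain, fell by 0.72 ± 0.11 on the log2 scale. Under the stricter cell filters Cd74 stood at 0.29, H2-Aa at 0.20, H2-DMb2 at 0.17 and Ighd at 0.16, so these 4 turned direction there. The share of cells with an Ms4a1 UMI moved with these genes, and its part was measured by a split below.

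**Figure D4:**
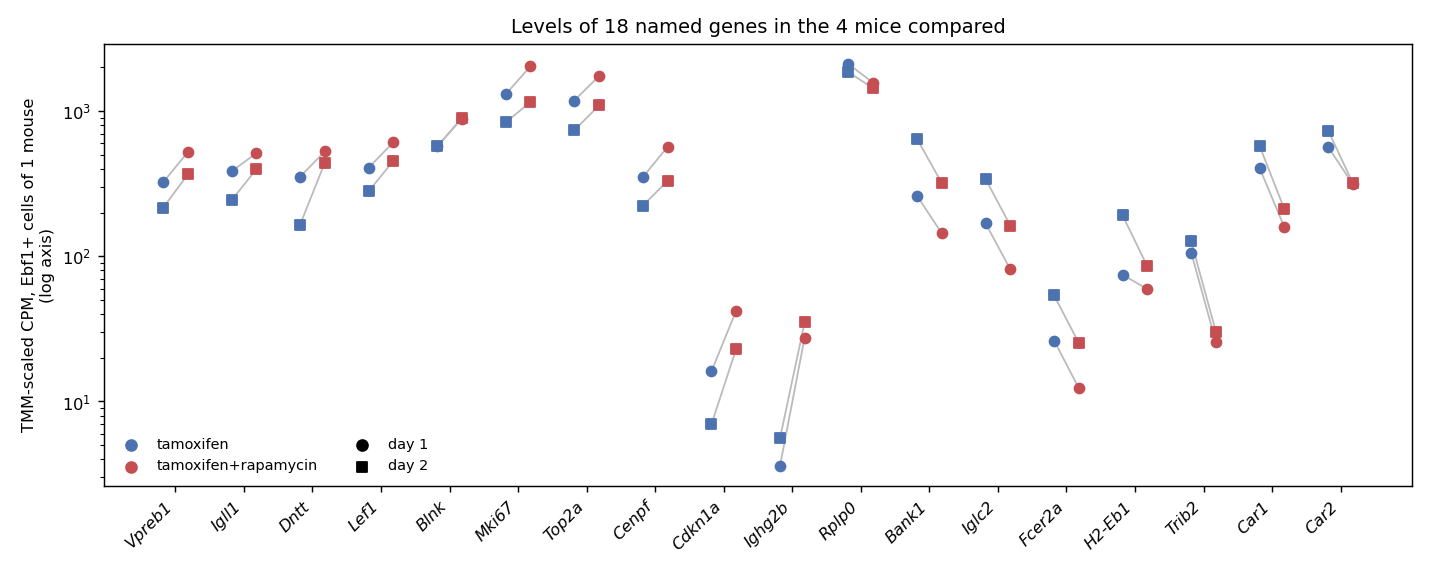
TMM-scaled CPM on a log axis (vertical) of 18 named genes (horizontal) in the Ebf1+ cells of each of the 4 mice. Blue is tamoxifen, red is tamoxifen+rapamycin, circles are day 1, squares are day 2, and lines join the mice of a day. Lines of the first 10 genes rise on both days and those of the last 8 fall, and for Trib2 all 4 mice separate by treatment with the days close together.

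Among the genes that fell most was Trib2. It encodes a pseudokinase of the Tribbles family and lies at chr12:15791727-15816922. Its level was 106 and 127 CPM with tamoxifen and 25.6 and 30.3 with tamoxifen+rapamycin. The groups were far apart and the days within a group were close. The log2 difference was -2.06 ± 0.13 (adjusted p = 1.01e-12). A UMI of Trib2 was in 21.9% and 25.7% of Ebf1+ cells with tamoxifen and in 6.59% and 7.51% with tamoxifen+rapamycin, with no cell above 4 UMIs, so no single cell carried it. The late rapamycin mice stood at 49.2 and 123 CPM, unscaled, the first between the 2 groups and the second within the tamoxifen range. Over 22 fits the difference lay between -2.46 and -1.57 and was called in 19, and in cells with a Cd79a UMI it was -2.42. DESeq2 and the fit with all 6 mice were among the fits that did not call Trib2. Of the other large falls, Hvcn1, a proton channel of B cells, went from 59.1 and 99.3 CPM to 18.3 and 34.0 (-1.59 ± 0.15, adjusted p = 6.94e-09). March1, a ubiquitin ligase that removes class II from the surface, went from 26.8 and 111 CPM to 13.3 and 35.7 (-1.49 ± 0.17). Hvcn1 separated the groups, and March1 did not. Slc15a2, a peptide transporter, went from 19.7 and 15.3 CPM to 1.37 and 4.38 (-2.48 ± 0.42, adjusted p = 0.000156), but late rapamycin mouse 1 had no UMI of it and late rapamycin mouse 2 had 28.4 CPM, so mice of 1 treatment differed as much. Ccl5, a chemokine of T and NK cells, fell by 3.26 ± 0.50, and 23 of the 30 UMIs in tamoxifen mouse 1 came from 1 cell.

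Among the largest rises, Eif3j2, a copy of a gene for a translation initiation factor subunit, went from 2.39 and 0.928 CPM to 14.6 and 8.76 (2.82 ± 0.52, adjusted p = 0.000475). The other kept cells showed it too, with 44 and 40 UMIs in the tamoxifen mice, 339 and 496 in the tamoxifen+rapamycin mice and 84 and 52 in the late rapamycin mice. Its near-identical relative makes the count uncertain. Cmtm8 (1.65), Gprin3 (1.56), Emp1 (1.30) and Alpl (1.19) rose as well, each at most at 30.7 CPM in any mouse. The noncoding gene 4930597A21Rik, singled out after its values were seen, lies at chr11:44586317-44591229 on the plus strand, with 26.1 kb between its end and the start of Ebf1, which follows on the same strand. It had no UMI in the Ebf1+ cells of either tamoxifen mouse, and 95 and 162 UMIs in 74 and 140 cells of the tamoxifen+rapamycin mice. The late rapamycin mice had 1 and 0. Against a floor of 3 UMIs per library, the level was at least 23.7-fold higher on day 1 and at least 38.9-fold higher on day 2. Among the other kept cells it had 2 and 0 UMIs with tamoxifen and 16 and 5 with tamoxifen+rapamycin. The level of Ebf1, given above, was higher in the same 2 mice.

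Ribosomal protein genes were slightly lower. Of 80 tested, 77 were below 0, 23 were called lower and none higher, with a median of -0.11. Rplp0, a protein of the ribosomal stalk, went from 2111 and 1858 CPM to 1568 and 1436 (-0.40 ± 0.05, adjusted p = 2.44e-07; DESeq2 adjusted p = 0.00235). Its groups did not overlap. Rplp1 fell by 0.25 ± 0.04 on the log2 scale and Rps12 by 0.20 ± 0.04. Summed over the list, ribosomal protein genes took 138783 and 142045 CPM with tamoxifen and 125075 and 129414 with tamoxifen+rapamycin, without overlap, and 127666 and 142083 with late rapamycin. The other kept cells moved the same way, with 174518 and 180102 CPM with tamoxifen and 169269 and 173993 with tamoxifen+rapamycin. In cells with a Cd79a UMI the sums were 131813 and 124030 CPM with tamoxifen and 121905 and 125418 with tamoxifen+rapamycin. There the groups overlapped, and the day 2 rapamycin mouse was the higher of its day. None of 25 translation factor genes was called by edgeR, with 5 at an unadjusted p under 0.05. Ribosomal protein genes are targets of mTOR complex 1 at the level of translation, which RNA counts do not measure.

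Genes of the mTOR pathway itself showed little. Of 38 tested, 1 was called, Fkbp1a, the rapamycin-binding protein, at 90.7 and 80.7 CPM with tamoxifen and 135 and 100 with tamoxifen+rapamycin (0.44 ± 0.11, adjusted p = 0.0125). Of 20 genes of a cholesterol synthesis list, 4 were called higher and none lower, with a median of 0.45. Among them were Idi1, an isomerase of the pathway (0.89), Scd2, a fatty acid desaturase (0.52), and Srebf2, the factor that controls the pathway (0.42). The summed cholesterol list was higher in the other kept cells too, at 591 and 516 CPM with tamoxifen and 700 and 622 with tamoxifen+rapamycin. Of 18 immediate early genes, 3 were called higher: Cd69 (0.64), Fos (0.56) and Jun (0.41). Of 13 heat and cold shock genes, Hspa8 (-0.30), Hspe1 (-0.29) and Hspa1b (-2.52, at most 4.77 CPM in any mouse) were called lower. Among 32 interferon-response genes, Ifi209 was called higher (0.58) and Ifi204 (-2.13) and Oasl2 (-1.67) lower. Of 14 survival genes, Bcl2l1 (0.41) and Cdkn1a were called higher and Bcl2 lower (-0.51), where Bcl2l1 and Bcl2 both encode inhibitors of apoptosis. Without tamoxifen mouse 2, Bcl2 stood at 0.03. Of 15 homing genes, Cd44 (-0.33) and Ccr9 (-1.65) were called lower. Oxidative phosphorylation, with 3 calls of 90, and glycolysis, with 1 of 14, lay near the background of 6.47%.

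RNA of other cell types moved with the treatment too, and since counts are summed over cells, fewer such cells or droplets and less RNA in each cannot be told apart. All 8 erythroid genes tested were called lower, with a median of -2.11. In the Ebf1+ cells without an Ms4a1 UMI 4 of the 8 were called lower, with a median of -0.88, and 3 lay above 0. Summed, 9 erythroid genes took 1171 and 2240 CPM with tamoxifen and 649.8 and 590.6 with tamoxifen+rapamycin, with 1016 and 942 in late rapamycin mice. Car1, a carbonic anhydrase of erythroid progenitors, was at 404 and 573 CPM with tamoxifen and 158 and 211 with tamoxifen+rapamycin (-1.40 ± 0.08, adjusted p = 2.34e-13), without overlap. Its UMIs came from 31 and 53 cells with tamoxifen and 32 and 45 with tamoxifen+rapamycin, that is, from a small number of Ebf1+ cells with many UMIs each. In Ebf1+ cells with a Cd79a UMI, Car1 stood at -0.38 (adjusted p = 0.425) and Car2 at 0.14 (adjusted p = 0.788), so neither was called there, while 5 of the 8 erythroid genes, globins among them, were still called lower. Hbb-bs, a beta globin, was at 80.5 and 490 CPM with tamoxifen and 103 and 22.2 with tamoxifen+rapamycin, and 810 of the 1056 UMIs of tamoxifen mouse 2 came from 1 cell. Without tamoxifen mouse 2 its difference was 0.19. Of 12 neutrophil genes, Lyz2 (-0.76) and Ltf (-0.53) were called lower, and without tamoxifen+rapamycin mouse 1 they stood at 0.05 and 0.75. The summed neutrophil list was at 9560 and 4646 CPM with tamoxifen, 4308 and 6613 with tamoxifen+rapamycin, and 58242 and 5274 with late rapamycin, so late rapamycin mouse 1 stood apart. Of 7 stem cell genes, Mecom (-0.55) and Hlf (-0.53) were called lower, and in cells with a Cd79a UMI they stood at 0.14 and 0.24. No member of the monocyte, megakaryocyte or T and NK lists was called, with 6, 1 and 1 genes tested. The part of these cells in the B-lineage results was not tested beyond the Cd79a selection, in which 363 genes were called. Of the 690 earlier calls, 656 were still tested there, 249 were still called and 607 kept their sign. There Mki67 stood at 0.49, Vpreb1 at 0.38, Bank1 at -1.14 and Blnk at 0.42, each called, while Igll1 stood at 0.24 (adjusted p = 0.213).

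The cells without an Ms4a1 UMI carried most of the calls. In them 459 of 10367 genes passed (4.43%), 256 higher (2.47%) and 203 lower (1.96%). Of these, 432 were also among the 690, all in the same direction, which is 94.1% of the smaller list and 62.6% of the larger. Of G2/M genes 28 of 38 were called higher, of early B genes 8 of 21 with 1 lower, of transcription factors 9 of 28, and of ribosomal protein genes 25 of 80 were called lower. Trib2 stood at -2.13 there and Bank1 at -1.36. In the 762 cells with an Ms4a1 UMI, 4 of 6297 genes passed, all lower (0.0635%), with 267 at an unadjusted p under 0.05, and DESeq2 called none, with 10 at an unadjusted p under 0.05. The 4 were Chil3, a chitinase-like protein of neutrophils (-3.32), Car2 (-2.08), Hbb-bs (-5.75) and the unnamed gene model Gm47283. None is a B-lineage gene by name, and 41 of 44 and 51 of 64 Chil3 UMIs of the 2 tamoxifen mice, as well as 810 of 1010 Hbb-bs UMIs of tamoxifen mouse 2, came from 1 cell each. The Ms4a1+ cells summed to 194661 to 465205 UMIs per mouse, against 1451232 to 2523452 for the others, and the part of this gap in depth in the lower count was not tested. In the Ms4a1+ cells the median of 29 G2/M genes was -0.05 with none called, while the early B genes had a median of 0.24 with none of 15 called. Trib2 stood at -1.65 (adjusted p = 0.0792), with 138 and 165 CPM in tamoxifen mice and 38.5 and 54.9 in tamoxifen+rapamycin mice.

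**Figure D5:**
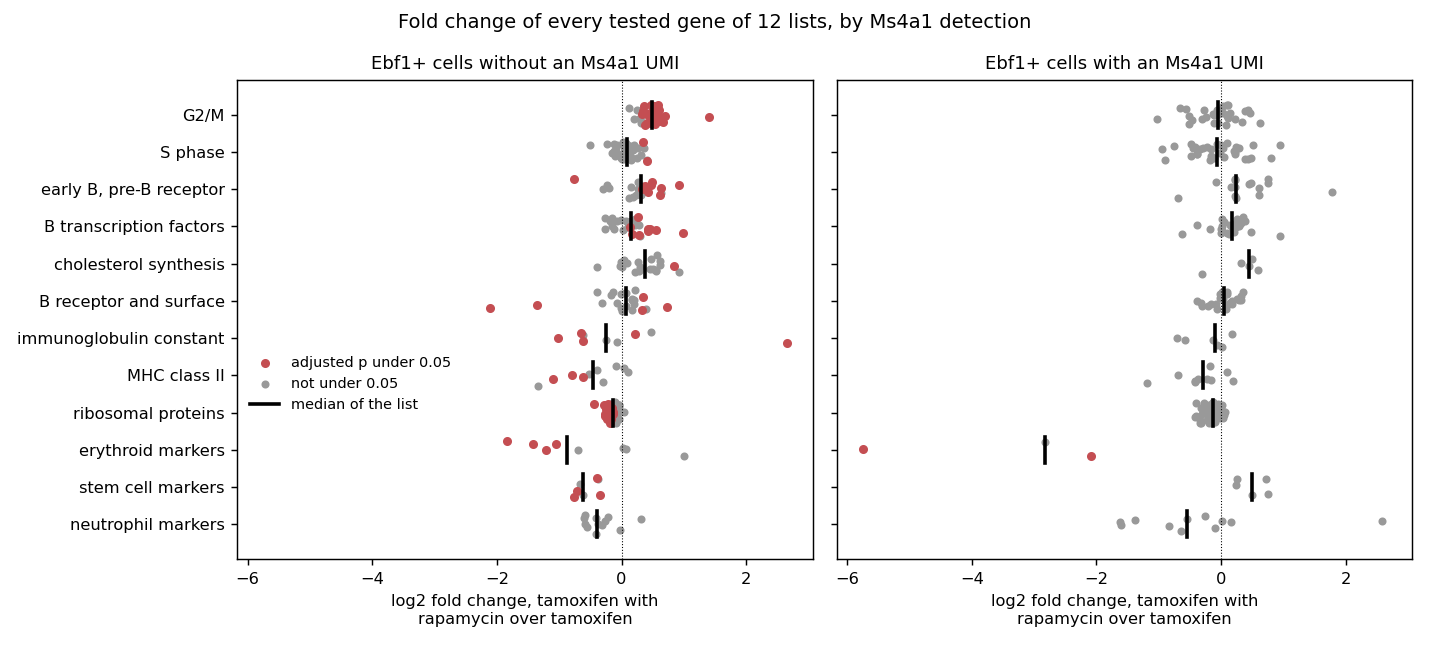
Log2 fold change of tamoxifen+rapamycin over tamoxifen (horizontal axis) for every tested gene of 12 lists (vertical axis), in Ebf1+ cells without an Ms4a1 UMI on the left and with one on the right. Red points passed an adjusted p of 0.05 and black bars are list medians. The G2/M genes lie to the right of 0 on the left panel, with a median of 0.48, and on both sides of it on the right panel, with a median of -0.05.

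Whether the effect differed between the 2 stages was tested as an interaction, in which 1 of 9691 genes passed (0.0103%), with 297 at an unadjusted p under 0.05. It was Chil3, with the single cells named above. Among those with the next smallest p, Btla, an inhibitory receptor, differed by 1.38, Bank1 by 1.02 and Cd74 by 0.88, each with an adjusted p of 0.448. The difference between the stages was thus not shown for a B-lineage gene.

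Because the share of Ms4a1+ cells fell, each difference was also divided into a part from the mix of stages and a part within stages. With the cells split by Ms4a1 alone, the part within stages was the larger on both days for 661 of the 690 genes, and the part from the mix was the larger for 3. With 4 stages, split by a division gene UMI as well, the counts were 603 and 12. Ms4a1+ cells held 13.3% and 21.6% of the UMIs with tamoxifen and 8.69% and 15.6% with tamoxifen+rapamycin. So small a shift in weights limits the part from the mix, and the same counts over all genes were not made. Within-stage parts were the larger for all 10 called early B genes and all 10 called transcription factors under both splits. For the called G2/M genes it was 33 of 34 with the first split and 24 with the second, whose division genes belong to that list, so that the second split is set in part by the change it divides. For the 4 called MHC class II genes the part within stages was the larger on both days for 1 and then 0, and the part from the mix for 0 and then 1, so for most of them the larger part differed between the days. For H2-Eb1 with the first split, the mix gave -13.9 and -23.7 CPM on the 2 days and the part within stages -2.70 and -83.1. A UMI is a coarse mark of a stage, so cells of different stages remain together in each class. Neither split used the precursor genes, whose share also rose, so a shift among precursor stages is counted within stages. So is the larger share of cells with exactly 1 Ebf1 UMI in the tamoxifen mice. In cells with a precursor gene UMI, 1 of 21 early B genes was called higher, and 1 of 28 transcription factors higher and 1 lower. In cells without one, 5 of 13 early B genes and 5 of 28 transcription factors were called higher and none lower. In the Ebf1+ cells without a UMI of the 5 division genes, 125 genes were called, 52 higher and 73 lower. Of the 515 earlier calls still tested, 84 were still called and 451 kept their sign. None of the 9 G2/M genes tested there was called, against 18 of 38 in cells with a division gene UMI.

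Last, the effect in Ebf1+ cells was set against the effect in the 21140 other kept cells of the same mice. Of 14402 genes, 2 differed (0.0139%), with 1029 at an unadjusted p under 0.05. They were Car1 (members minus others -0.90, adjusted p = 0.0217) and Car2 (-0.79, adjusted p = 0.0217), the erythroid genes carried by few Ebf1+ cells. Trib2 came next at -1.64 (adjusted p = 0.0707), with 13.8 and 14.3 CPM in the other cells of tamoxifen mice and 11.5 and 9.96 in those of tamoxifen+rapamycin mice. Mki67 differed by 0.51 (adjusted p = 0.645), with 682 and 610 CPM against 733 and 617 in the other cells. Vpreb1 differed by -0.09 (adjusted p = 0.959). The B-lineage changes above were therefore not shown to differ from those in the rest of the marrow cells at this number of mice.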

How the data were processed

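The deposited matrices, 1 per day, hold raw UMI counts per gene and per hashtag. Per the submitters' processing notes they were made with Cell Ranger 7.0.0 on mm10, while the file headers name Cell Ranger 8.0.1; whether intronic reads were counted is not given in the sources used here. The authors' deposited hashtag table gave each hashtag's group. Its group "Ctrl" was taken as the mice given rapamycin at P30 in the labels. The design text names 2 weeks where the labels give an age of 6 weeks. The members and gene lists were chosen with earlier results of these data known.

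UMIs of the selected cells were summed per mouse and fitted with edgeR 4.0.16 (R 4.3.3; TMM, filterByExpr, quasi-likelihood test, two-sided, day as block, Benjamini-Hochberg over all genes tested), with DESeq2 1.42.0 as an alternative. The script was tested on simulated data. Same-day mice deviated together (correlation 0.218, which 2 pairs force to be equal). Thinning drew 1000 UMIs per cell. No doublet caller was run: the hashtag share removes cells of 2 mice, and doublets within a mouse remain. Of the members, 1 barcode occurred on both days, among 126 shared by the 2 runs. Genes were named by a rule of largest change per fit and smallest p per list, and unnamed gene models were only counted except where stated.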

Additional observations from a re-analysis of the deposited data

Results flagged for a closer look

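A difference of effects between classes of cells passed its test for 3 genes. Chil3, a chitinase-like gene of neutrophils, differed by -3.41 on the log2 scale between Ms4a1+ and Ms4a1 0 cells (edgeR interaction, adjusted p = 0.0445). Its UMIs in the Ms4a1+ cells were 44 and 64 with tamoxifen, 41 and 51 of them from 1 cell each, and 5 and 5 with tamoxifen+rapamycin. Car1 differed by -0.90 and Car2 by -0.79 between the Ebf1+ cells and the other kept cells (adjusted p = 0.0217 for each). In the other kept cells Car1 stood at -0.39 on day 1 and -0.57 on day 2, and in the Ebf1+ cells at -1.34 and -1.42, so both classes were lower with rapamycin on both days.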

How the results depend on the processing

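The fits had 4 mice and 1 residual degree of freedom, and the labels do not say whether the day numbers mark litters. Of the 690 calls in Ebf1+ cells, 60 were still called with DESeq2, 6 without the replicate block and 1 with all 6 mice. The counts of calls for Ebf1+, Ms4a1 0 and Ms4a1+ cells, in that order, were 60, 47 and 0 with DESeq2, 6, 11 and 0 without the replicate block, and 1, 1 and 0 with all 6 mice, where Car1 was the single call in both. In the Ms4a1+ cells 10, 133 and 196 genes had an unadjusted p under 0.05 under these 3 settings. Leaving out each of the 4 mice in turn from the fit of all 6, in which a lone mouse is assumed to vary like the other groups, gave 0 to 23, 0 to 15 and 2 to 32. Asking for at least 2 Ebf1 UMIs gave 331, 114 and 1, a Cd79a UMI 363, 277 and 0, and leaving out the cells with the highest UMI totals 378, 214 and 2. Leaving out late rapamycin mouse 1 or 2 gave 756 and 656 for Ebf1+ cells, 661 and 236 for Ms4a1 0 cells, and 8 and 11 for Ms4a1+ cells. In those fits the remaining late rapamycin mouse is fitted exactly by its own term. It adds no residual information, so they cannot show how stable the comparison of the 4 mice is. For Ms4a1+ cells, no low-count filter gave 37, a hashtag share of at least 90% gave 2 and no Elane filter gave 23. The difference of effect between the stages, 1 gene, became 16 without a low-count filter, 3 under stricter cell filters, 0 under the hashtag, Ebf1, Cd79a, highest UMI and Elane alternatives, and 3 to 20 with a mouse left out. The difference from other kept cells, 2 genes, became 247 without a low-count filter, 0 with at least 2 Ebf1 UMIs, 6 with a Cd79a UMI, and 0 to 55 with a mouse left out. With a mouse left out, shares were compared as group means, in which the days are no longer paired. The difference of the Ebf1+ share then ran from 0.797 to 5.58 points. That of the Ms4a1 share ran from -15.4 to 1.39, turning direction without tamoxifen mouse 2. Under stricter cell filters, with the days paired, the Ms4a1 difference was -1.95. For Ebf1+ cells, DESeq2 size factors gave 524, no low-count filter 795, no immunoglobulin genes 712, a hashtag share of at least 90% 563, stricter cell filters 958 and no Elane filter 536. Named genes that turned direction were, with a Cd79a UMI, Asns (0.76), Bach2 (-0.048), Car2 (0.14), Hlf (0.24) and Mecom (0.14), with 2 Ebf1 UMIs, Bach2 (-0.018), under stricter filters, Cd74 (0.29), H2-Aa (0.20), H2-DMb2 (0.17) and Ighd (0.16), without the highest UMI cells, Cox6b2 (0.44), without tamoxifen mouse 2, Bcl2 (0.028), Ctss (0.11), Hbb-bs (0.19) and Ltf (0.26), and without tamoxifen+rapamycin mouse 1, Ltf (0.75) and Lyz2 (0.050). The causes were not tested. The late rapamycin, Elane, left-out-mouse interaction and other-cell alternatives were added after seeing the data.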
